A study of Mus musculus with 8 samples.

Results

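The mouse genes named Zfp followed by a number are a loose naming class of zinc finger genes. They were collected here as every array probe whose gene symbol in the platform's annotation begins that way, and a probe was kept for testing where a ratio could be computed on at least 3 arrays of each dye orientation. The rule found 225 probes of 192 genes among the 21582 probes of the array, and 189 probes of 165 genes passed, among 15345 probes tested. The members were thus chosen by their symbol and selected on the number of arrays with a computable ratio. Each array's highest value counts as not computable, so the choice depends in part on the size of the ratios. Another 36 probes were not tested and left 27 genes without a value in the fits; 1 of these probes, of Zfp101, had no computable ratio on any array. Of the 225 probes, 84% were tested, against 71.0% of the other probes.

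Most Zfp genes encode proteins with arrays of C2H2 zinc fingers, short loops held by a zinc ion, each of which can read a few bases of DNA. Many also carry a KRAB domain, which recruits the corepressor Trim28 and, with it, the histone methyltransferase Setdb1, so that the bound DNA is packed into silent chromatin. Retroelements and imprinted loci are known targets. Other members have different structures and roles: some bind RNA, and a few act in neural development. KRAB zinc finger genes lie in clusters of similar copies, on mouse chromosomes 7, 13 and 17 among others.

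The cells were neurospheres from the cortex of mouse embryos of gestational day 12.5, grown as floating clusters in serum-free medium with basic FGF, EGF and LIF. Control cultures received no ethanol. Exposed cultures received ethanol at 320 mg/dl for 5 days during proliferation. Both were then differentiated by withdrawing EGF and LIF, with basic FGF kept, and the exposed cultures spent those 3 days free of ethanol. Control and exposed RNA were hybridised together on 8 arrays. The exposed RNA carried the dye Cy3 on replicates 1 to 4 and Cy5 on replicates 5 to 8. The labels leave unsaid whether the arrays hold RNA of separate cultures, and the p-values below therefore cover only differences from array to array, possibly technical ones.

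The values are log2 ratios with no intensities, and every array was set to a median of 0. The labels do not say which channel was divided by which. Each probe was therefore described by 2 quantities. The shared part is the mean of the ratio over both dye orientations, and it holds the ethanol difference if control and exposed RNA were divided the same way on all arrays. The turning part is the change of the ratio with the dye, positive where the ratio was higher with exposed RNA in Cy5, and it holds the ethanol difference if one dye was always divided by the other. In each case the other part holds differences between the dyes, and which part is which cannot be told from the labels. Signs are as deposited, and none is read as a rise or a fall with ethanol. The marker lists of the cell types that such cultures can hold give ratios only, so the presence of a cell type could not be checked. Of these lists, 9 of 10 neural progenitor genes, 6 of 10 neuronal genes and 7 of 8 astrocyte genes were tested, with median shared parts of 0.47, -0.02 and -0.84, and their part in the Zfp results was not tested. In such bulk RNA, fewer cells of a type and less RNA per cell cannot be told apart.

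The promoters of 4 genes on which the results turn are shown first. Zfp386, Zfp27 and Zfp281 had the smallest p-values of all Zfp probes in the shared part, and Zfp958 was the single Zfp probe past the threshold in the turning part. The sequences are RefSeq's for the GRCm38.p6 assembly, from 250 bases before to 50 bases after the start of the gene, printed in the direction of transcription. Capitals mark the searched motifs, on either strand.

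Zfp386, chr12:116047474-116047773, plus strand: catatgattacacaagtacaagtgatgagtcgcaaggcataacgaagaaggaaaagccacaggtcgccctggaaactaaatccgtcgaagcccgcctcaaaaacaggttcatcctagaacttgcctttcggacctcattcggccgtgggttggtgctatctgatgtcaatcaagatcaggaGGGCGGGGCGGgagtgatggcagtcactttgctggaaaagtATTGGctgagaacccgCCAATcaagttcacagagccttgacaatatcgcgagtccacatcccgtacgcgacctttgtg
Zfp27, chr7:29906483-29906782, minus strand: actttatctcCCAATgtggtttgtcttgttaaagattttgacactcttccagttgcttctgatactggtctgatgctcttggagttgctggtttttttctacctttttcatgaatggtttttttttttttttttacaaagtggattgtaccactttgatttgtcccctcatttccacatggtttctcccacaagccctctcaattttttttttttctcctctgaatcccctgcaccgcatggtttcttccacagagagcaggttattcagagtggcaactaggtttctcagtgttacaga
Zfp281, chr1:136624651-136624950, plus strand: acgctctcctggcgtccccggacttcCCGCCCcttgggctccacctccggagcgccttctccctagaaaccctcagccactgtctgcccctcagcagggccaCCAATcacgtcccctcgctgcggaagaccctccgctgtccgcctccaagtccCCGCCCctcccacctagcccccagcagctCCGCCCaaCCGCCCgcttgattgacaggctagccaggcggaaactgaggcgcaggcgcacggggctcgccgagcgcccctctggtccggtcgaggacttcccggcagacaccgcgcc
Zfp958, chr8:4612920-4613219, plus strand: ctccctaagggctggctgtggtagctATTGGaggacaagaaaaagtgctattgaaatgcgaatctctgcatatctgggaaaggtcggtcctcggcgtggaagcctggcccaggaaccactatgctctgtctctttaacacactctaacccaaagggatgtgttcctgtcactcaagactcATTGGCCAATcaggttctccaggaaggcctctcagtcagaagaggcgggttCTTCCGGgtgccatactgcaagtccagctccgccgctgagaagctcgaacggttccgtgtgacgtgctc

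The 4 windows were unlike each other. That of Zfp281 was rich in G and C (70.7%) with 27 CpG dinucleotides, and held a CCAAT box with 4 GC boxes. That of Zfp386 had 51% G and C, 17 CpG dinucleotides, 2 overlapping GC boxes and 2 CCAAT boxes. The window of Zfp958, 1 of 3 listed for the gene, had 54% G and C and 12 CpG dinucleotides. The window of Zfp27, 1 of 2 listed, had 39.3% G and C and 1 CpG dinucleotide.

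A promoter window was available for 137 of the tested Zfp genes. The searched letters were TATAAA for the TATA box and CCAAT for the CCAAT box. They were GGGCGG for the GC box and TGACGTCA for the cAMP response element. For E2F sites either TTTCCCGC or the variant TTTGGCGC was accepted. The core of ETS sites was CCGGAAG and the core of YY1 sites was ATGGCGG. Both strands were searched, and matches may overlap. The GC box was present in 49.6% of the Zfp windows and in 56.8% of the windows of the other tested genes. The CCAAT box was present in 38.7% and 38.8%, and TATAAA in 9.49% and 9.97%. The ETS core was found in 21.2% of Zfp windows against 15.2%, the YY1 core in 9.49% against 6.85% and the E2F letters in 5.11% against 2.79%. The cAMP response element was found in 1.46% against 2.92%. Of the Zfp genes whose shared part was below 0 with an unadjusted p under 0.05, 33 had a window. In these the GC box was present in 48.5%, the CCAAT box in 42.4% and TATAAA in 6.06%. The ETS core was present in 24.2% (8 windows) and the YY1 core in 12.1%. The E2F letters and the cAMP response element were in none, and both were rare over all Zfp windows. Median G and C content was 56% over Zfp genes and 59% over other tested genes. These shares describe letters in a window and carry no test.

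In the shared part, the Zfp probes lay on the negative side. Their median was -0.29 on the log2 scale, beside -0.06 for the 15156 other tested probes, and 123 of the 189 were negative, which is 65.1% beside 53.8%. The values ran from -2.93 for Zfp445 to 1.66 for Zfp455. None of the 189 passed an adjusted p of 0.05 with limma, and 0 of all 15345 probes did (0% called). At an unadjusted p under 0.05, 41 Zfp probes were negative and 5 positive. Over all tested probes, 9.01% were negative and 4.88% positive by the same rule, beside 21.7% and 5 of 189 for the Zfp probes. The smallest adjusted p of any probe on the array in the shared part was 0.136.

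The array medians of the tested Zfp probes were -0.51, -0.34, -0.42 and -0.46 on replicates 1 to 4, and -0.53, 0.16, -0.61 and -0.01 on replicates 5 to 8. Those of the other tested probes were -0.12, -0.15, -0.02 and -0.15, then -0.12, 0.14, -0.06 and 0.11. The Zfp median thus lay below that of the other probes on 7 of 8 arrays, and slightly above it on replicate 6. The SD of the Zfp array medians was 0.271 (n = 8).

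**Figure D1:**
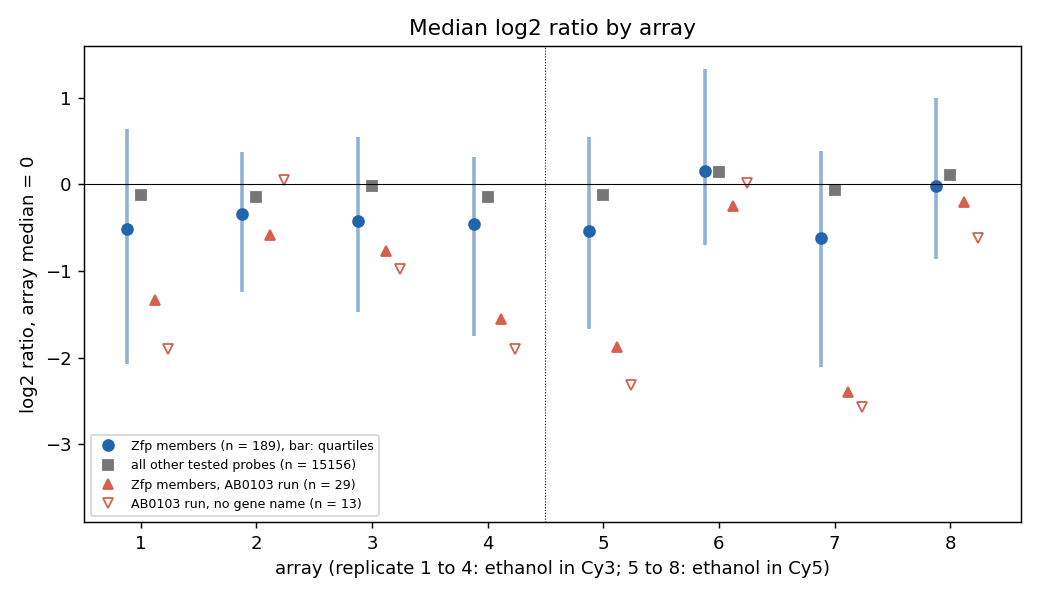
Median log2 ratio (y axis, array median at 0) on each of the 8 arrays (x axis) for all tested Zfp probes with their quartiles, for all other tested probes, and for the Zfp and the unnamed probes whose identifiers form a run beginning with AB0103 (filled and open triangles). The Zfp medians lie below the grey squares on every array but replicate 6, and the filled triangles lie below both on all 8 arrays.

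Of the Zfp probes, 8 had a ratio below the array median on every array with a value, where 1.75% of all tested probes did so, and 2 had a ratio above it on every such array, where 1.82% did. The 8 were those of Zfp386, Zfp281, Zfp825, Zfp27, Zfp715, Zfp712, Zfp78 and Zfp111, all with 8 values, and the 2 were Zfp414 and Zfp428. The 12 Zfp probes with the smallest p in the shared part were all negative, with adjusted p between 0.136 and 0.204 in limma. Shared parts ran from -2.93 to -1.42 among them, so that each was beyond a 2-fold difference and still missed the correction over all probes.

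Zfp386 is a KRAB zinc finger gene, represented by probe NM_019565 on chromosome 12. Its ratios were -0.61, -2.34, -1.48 and -3.07 on replicates 1 to 4 and -3.22, -2.56, -2.47 and -1.74 on replicates 5 to 8. All 8 lay below the array median and the orientations overlapped. The shared part was -2.18 ± 0.35 (SE, n = 8 arrays; adjusted p = 0.136, limma).

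Zfp281, on chromosome 1, encodes a GC-box-binding regulator of pluripotency genes in mouse embryonic stem cells. Its ratios were -3.08, -0.22, -5.57 and -3.89, then -3.07, -1.71, -2.70 and -2.20. All were below the array median, with replicate 2 nearest to it. The shared part was -2.81 ± 0.51 (SE, n = 8 arrays; adjusted p = 0.140, limma).

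Zfp27 is a KRAB zinc finger gene on chromosome 7 with 2 tested probes. Probe AB010321 gave -2.41, -2.59, -4.29 and -2.49 on replicates 1 to 4 and -0.96, -2.28, -1.07 and -0.62 on replicates 5 to 8, so that all were negative and every Cy5 array lay above every Cy3 array. Its shared part was -2.09 ± 0.34 (SE, n = 8 arrays; adjusted p = 0.136, limma). The other probe, M36515, gave -0.14 ± 0.63 (SE) with 7 values of both signs.

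Zfp445 works beside Zfp57 in keeping parental imprints in the mouse. Its probe AB010350 had the lowest shared part of all Zfp probes. The ratios were -3.48, -2.18, -5.06 and -3.89, then -4.19, -0.64, -5.62 and 1.66, so that 7 arrays were negative and replicate 8 was positive. The shared part was -2.93 ± 0.73 (SE, n = 8 arrays; adjusted p = 0.182, limma). Zfp57 itself, which binds methylated imprinting control regions, ranged from -3.48 to 2.51 with a shared part of -1.16 ± 0.54 (SE), and 6 of 8 arrays were negative. Zfp932, a repressor of endogenous retroviruses, had 0.31 ± 0.51 (SE) from 6 arrays with values on both sides.

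Among the other negative probes, Zfp825 on chromosome 13 gave -5.92, -1.31, -2.36 and -4.22, then -1.68, -0.16, -3.25 and -0.14, and its shared part was -2.38 ± 0.55 (SE). All 8 arrays were negative, with the Cy5 arrays tending nearer to 0. Zfp715 on chromosome 7, through probe AB010329, gave between -3.93 and -0.36 on all arrays, with a shared part of -1.81 ± 0.41 (SE). Zfp712 on chromosome 13, through probe AB010374, gave between -3.13 and -0.57, with -1.53 ± 0.35 (SE).

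The remaining 6 of the 12 were negative on 7 of 8 arrays apiece with Zfp445 among them. Zfp433 had a shared part of -2.05 ± 0.49 (SE), Zfp790 one of -1.42 ± 0.36 and Zfp946 one of -1.87 ± 0.47. Zfp157, a KRAB gene studied in mouse mammary development, had -2.17 ± 0.57 (SE), and Zfp326, whose human counterpart links RNA polymerase II elongation with splicing, had -1.75 ± 0.45 (SE). The single positive array was replicate 6 for Zfp433, replicate 5 for Zfp790, replicate 2 for Zfp946 and Zfp326, and replicate 8 for Zfp157 and Zfp445. No 1 array was thus the exception throughout.

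**Figure D2:**
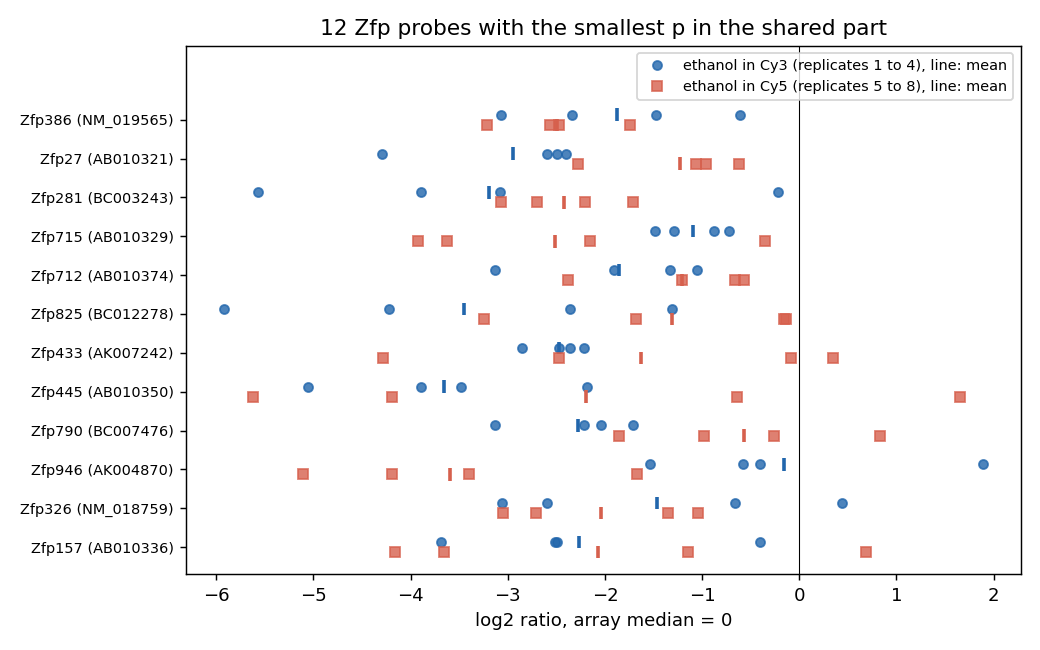
Log2 ratio (x axis, array median at 0) on each array for the 12 Zfp probes with the smallest p in the shared part, with the mean of each dye orientation as a short line. Nearly all points lie left of 0 in these probes, which were chosen by the shared part. All 8 arrays are below 0 in 6 probes, and the other 6 have 1 array above it.

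On the positive side, Zfp414 was above the array median on all 8 arrays. Its ratios were 0.67, 0.64, 0.31 and 1.00, then 1.88, 0.87, 0.94 and 1.32, and the shared part was 0.95 ± 0.28 (SE; adjusted p = 0.228, limma). Zfp385a had 0.99 ± 0.42, Zfp58 0.90 ± 0.30, Zfp1 1.05 ± 0.44 and Zfp354b 1.52 ± 0.65 (SEs), with 7, 7, 6 and 5 positive arrays. None of these 5 passed the adjustment.

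The shared parts differed with the identifier of the probe. Of the 189 tested Zfp probes, 29, of 24 genes, have identifiers that begin with AB0103. Probes with such identifiers, whose numbers lie close together with gaps, are called a series here. The annotation does not say what the unnamed probes among them encode. This grouping was chosen after the values were seen. The 29 Zfp probes of the series had a median shared part of -0.91, and 27 of 29 lay below 0, 15 of them at an unadjusted p under 0.05. Of the 12 probes named above, 5 belong to the series: Zfp27, Zfp715, Zfp712, Zfp445 and Zfp157. The same series holds 13 tested probes that the annotation leaves without a gene name. These had a median of -1.36, all 13 lay below 0, 10 of them at an unadjusted p under 0.05. The 3 probes of the series with another gene name gave -0.07 for Mynn, 0.10 for Zkscan3 and -0.89 for Rslcan18. The 266 other probes with AB identifiers had a median of 0.03.

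The 160 Zfp probes outside the series, of 149 genes, kept a median of -0.20, with 96 negative (60%), 26 negative at an unadjusted p under 0.05 (16.3%) and 5 positive. Their array medians also lay below those of the other tested probes on 7 of 8 arrays. The negative shift was thus present outside the series and was smaller there. By identifier, the 45 Zfp probes from curated RefSeq transcripts (NM_) had a median of -0.23, beside 0.00 for other NM_ probes. The 68 from cDNA clones with AK identifiers had -0.03, beside -0.11 for other AK probes. The 15 with BC identifiers had -0.25 beside 0.04, and the 9 with AF identifiers -0.77 beside -0.08. In these 4 types, the Zfp median lay below that of the other probes of the type except for AK.

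**Figure D3:**
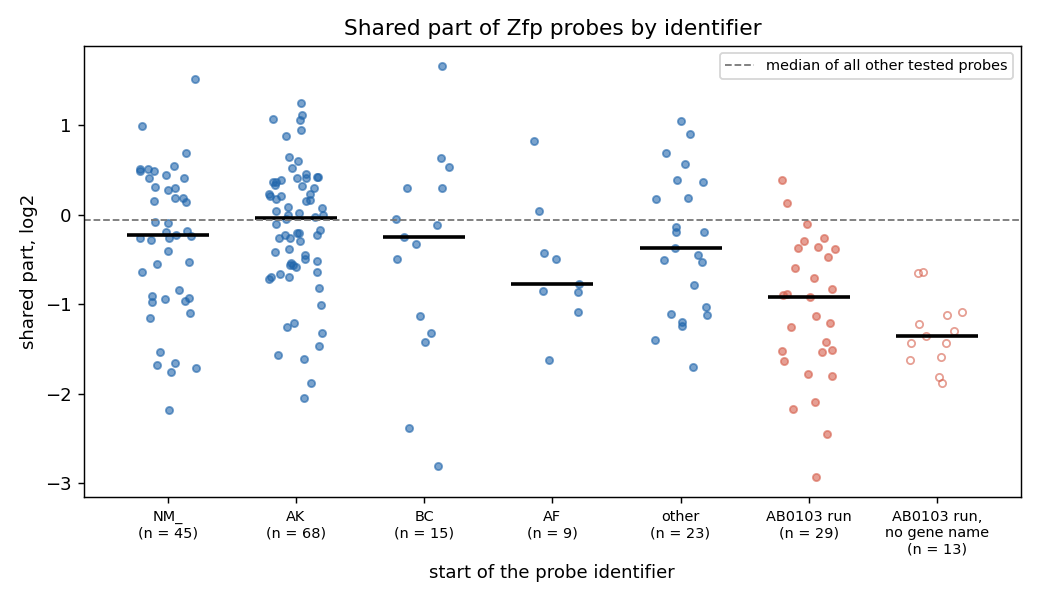
Shared part (y axis, log2) of each tested Zfp probe by the start of its identifier, and of the 13 unnamed AB0103 probes (open circles), with group medians as black lines and the median of all other tested probes dashed. The AB0103 probes have medians of -0.91 and -1.36, and the AK probes have one of -0.03, near the dashed line.

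The AB0103 members were lowest on replicates 7, 5, 4 and 1, where their medians were -2.40, -1.88, -1.55 and -1.34. On replicates 8, 6, 2 and 3 they were -0.20, -0.25, -0.58 and -0.77. The unnamed probes of the series had -2.57, -2.32, -1.90 and -1.89 on the first 4 of these arrays, and -0.61, 0.01, 0.06 and -0.98 on the others. Both groups were thus lowest on the same 4 arrays, which come from both dye orientations.

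Genes with several probes were looked at for how far their probes lie apart. There were 21 such genes with 45 tested probes. The probes of a gene had the same sign of the shared part in 12 genes, all but 1 of them negative. Of all tested Zfp probes, 65.1% were negative, with quartiles at -0.94 and 0.23. How often and how closely probes of different genes agree was not measured, so these values do not show agreement within genes. The median distance between the lowest and highest probe of a gene was 0.82, beside a median SE of 0.463 per probe, and in 7 genes it exceeded 1. Zfp51 gave -1.63 ± 0.49 through AB010357 and 0.69 ± 0.69 through X74855. Zfp715 gave -1.81 ± 0.41 through AB010329 but 0.13 ± 0.63 through AB010312 and 0.02 ± 0.78 through AK011730. Zfp74, by contrast, gave -1.21 ± 0.47 and -0.91 ± 0.46, and Zfp60 gave -1.53 ± 0.82 and -1.47 ± 0.90 (SEs throughout).

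In 8 genes, probes inside and outside the AB0103 series could be compared. The mean inside the series was lower in 6 of them (Zfp27, Zfp51, Zfp715, Zfp35, Zfp287 and Zfp317) and higher in Zfp9 and Zfp566, with a median difference of -0.53. Probe sequences were not used here, so which related transcripts a probe can bind was not tested.

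**Figure D4:**
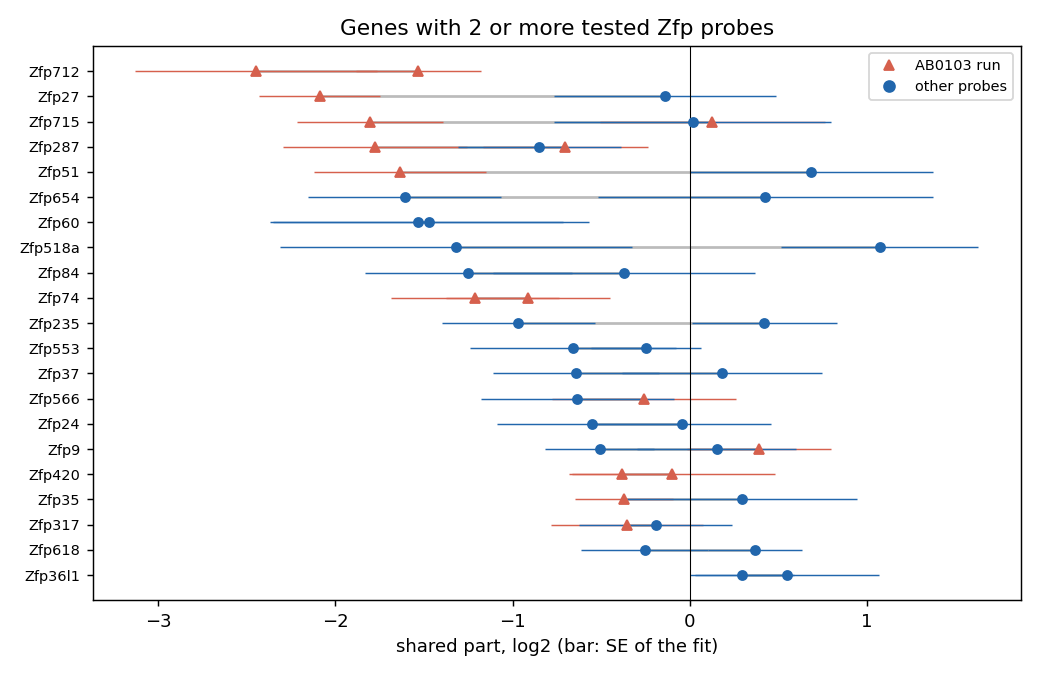
Shared part (x axis, log2, bars are SEs of the fit) of every tested probe of the 21 genes with several probes, with AB0103 probes as triangles. The grey line joins the probes of a gene; Zfp51 and Zfp27 show an AB0103 probe about 2 log2 units below the other probe.

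By position, chromosome 7 held 54 of the tested Zfp probes with a median shared part of -0.37, while the 876 other probes on that chromosome had a median of 0.01. Without the AB0103 series the 43 remaining Zfp probes on chromosome 7 had -0.23. Chromosome 17 held 21 with a median of -0.42 beside -0.04 for its other probes, and the 16 outside the series had -0.23. Chromosome 11 held 13 with -0.47 beside 0.03, and the 10 outside the series had -0.06. Chromosome 8 held 12, none of the series, with -0.22 beside 0.08. On chromosome 13 the 11 Zfp probes had a median of -0.77, but the 7 outside the series had 0.23. The 10 on chromosome 6 lay on the positive side at 0.19.

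Neighbouring Zfp genes were grouped where at least 5 tested genes followed each other with at most 10 other coding genes between neighbours. This gave 5 blocks with 43 of the 163 genes that could be placed. Their genes had a median of -0.45, beside -0.25 for Zfp genes outside blocks. The block of 11 genes on chromosome 7 from Zfp84 to Zfp146 had a median of -0.81, and 10 of its genes were negative. Zfp146 (-1.68), Zfp82 (-1.52) and Zfp790 (-1.42) were lowest there and Zfp30 (0.88) was the exception. The block of 9 genes from Zfp180 to Zfp428 on the same chromosome differed, with a median of 0.19 and 4 negative genes. No probe of that block belongs to the AB0103 series, whereas 5 genes of the first block have one.

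On chromosome 17, the 11 genes from Zfp160 to Zfp40 had a median of -0.30 with 9 negative, and the 7 genes from Zfp871 to Zfp414 had -0.45 with 4 negative. On chromosome 13, the 5 genes from Zfp712 to Zfp748 had -0.83 with 4 negative. The exception was Zfp455, at 1.66 ± 1.09 (SE).

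Sorted by known role, the Zfp genes with tasks in neural cells lay on both sides of 0. The 10 probes of 8 such genes had a median of -0.33, and 7 were negative. Zfp423, needed for cerebellar and olfactory development, had a shared part of -1.09 ± 0.52 (SE), with -4.34 at its lowest on replicate 2 and 0.90 at its highest on replicate 4. Zfp462, with a role in embryonic development, had -1.03 ± 0.82 and Zfp292 had -0.56 ± 0.51. Zfp110, which binds the neurotrophin receptor p75, had 0.37 ± 0.35. Zfp385a, which binds RNA and acts in neurons, stood at 0.99 ± 0.42 with 7 of 8 arrays positive. Zfp24, needed for myelination, had -0.04 ± 0.50 and -0.55 ± 0.54 through its 2 probes, and Zfp37 had -0.64 ± 0.47 and 0.18 ± 0.56. Zfp335, described with the turning part, had -0.11 ± 0.78 (SEs).

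Among regulators of pluripotency, growth and mitosis, the median over 6 genes was -0.21 and Zfp281 stood alone at the low end. Zfp148, which binds similar GC-rich sites, had -0.92 ± 0.85, with ratios from -5.03 to 3.62. Zfp42, also called Rex1, had -0.24 ± 0.42, Zfp296 had -0.19 ± 0.62 and Zfp706 had 0.19 ± 0.37. Zfp207, a spindle and checkpoint factor, had 0.69 ± 0.48 (SEs).

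The Zfp genes that act on RNA had a median of 0.41 over 7 probes of 6 genes, and 1 probe, that of Zfp326, was negative. Zfp36, which marks messages with AU-rich elements for decay, had 0.41 ± 0.31, and its relative Zfp36l1 had 0.29 ± 0.29 and 0.55 ± 0.52. Zfp346, a binder of double-stranded RNA, had 0.41 ± 0.41 and Zfp638 0.14 ± 0.57. Zfp74, first put in this list, was taken out after its values were seen because the annotation lists it as a KRAB gene. Its 2 probes had -1.21 ± 0.47 and -0.91 ± 0.46, so the list with them had more negative probes and a lower median. Zfp622, a factor of large ribosomal subunit maturation, had 0.30 ± 0.29 (SEs).

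The proteins through which KRAB zinc fingers silence DNA were described as a partner list of 29 genes, of which 23 were tested with 25 probes. Their median shared part was 0.21, 8 probes were negative, and none passed an adjusted p of 0.05 in limma. At an unadjusted p under 0.05, 2 of the 25 were positive and 2 negative, beside 4.88% and 9.01% of all tested probes. Trim28, the corepressor itself, had 0.59 ± 0.27 (SE) with all 8 arrays positive, and Setdb1 had 0.21 ± 0.28. Dnmt1, the maintenance DNA methyltransferase, had 0.94 ± 0.35 through 1 probe and -0.48 ± 0.57 through another. Mbd3, a subunit of the NuRD complex, had 0.65 ± 0.29. Morc3, an ATPase of the MORC family of silencers, was the lowest of the 8 negative probes at -2.21 ± 0.36 (adjusted p = 0.136, limma). All 8 of its arrays were negative. Atrx had -0.94 ± 0.40 (SEs). The list for BTB zinc finger corepressors had 11 probes of 8 genes and a median of -0.16. At an unadjusted p under 0.05, 2 of the 11 were negative and 1 positive. Cul3, the ubiquitin ligase scaffold that takes BTB adaptors, stood at -1.60 ± 0.56. The probes of Tbl1xr1 differed, with -1.64 ± 0.72, 1.07 ± 0.41 and 0.52 ± 0.42 (SEs). In the turning part, the 25 KRAB partner probes had a median of -0.17, and 18 were negative (72%), beside 43.1% of all tested probes. At an unadjusted p under 0.05, 1 probe, Rbbp7 (0.90 ± 0.34), was positive and no probe negative, beside 8.69% and 5.14%. The 11 BTB corepressor probes had a median of 0.30, with 9 positive. Bcor (0.83 ± 0.33) and Sin3b through AK013202 (1.165 ± 0.40) were positive by that rule. No probe of either list passed an adjusted p of 0.05 in limma.

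Other zinc finger families were set beside the Zfp class. The 20 probes of Zbtb genes had a median shared part of -0.11, the 9 of Zkscan and Zscan genes -0.02, the 8 of Zic and Gli genes -0.36 and the 23 of Klf and Sp genes -0.54. A negative median was thus not particular to the Zfp names, and both the Zic and Gli genes and the Klf and Sp genes had a lower one.

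In the turning part, the Zfp probes lay where the others did. Their median was 0.12, beside 0.11 for all other tested probes, and 107 of 189 were positive. With limma, 1 Zfp probe passed an adjusted p of 0.05, where 1.56% of all tested probes did. At an unadjusted p under 0.05, 21 were positive and 8 negative, where 8.69% and 5.14% of all tested probes were. In 16 Zfp probes every array with exposed RNA in Cy5 lay above every array with it in Cy3, where 5.68% of all tested probes did so. In 5 the order was the reverse, where 5.21% did so. The Zfp counts correspond to 8.47% and 2.65% of the 189.

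The probe past the threshold was BC003267 of Zfp958, a zinc finger gene on chromosome 8. Its ratios were 2.30, 1.59, 2.44 and 2.11 with exposed RNA in Cy3 and -1.88, -3.43, -1.72 and -4.07 with it in Cy5. The orientations were on opposite sides of the array median and did not overlap. The turning part was -2.44 ± 0.35 (SE, n = 8 arrays; adjusted p = 0.0051, limma), while the shared part was -0.33 ± 0.35. Without the 3 arrays whose codes end in r the adjusted p was 0.159.

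Zfp180 and Zfp202 came next, in the opposite direction. Zfp180, a KRAB gene on chromosome 7, gave -0.54, -1.05 and -1.83 with exposed RNA in Cy3 and 2.34, 2.36 and 2.33 with it in Cy5, from 6 arrays. Its turning part was 1.74 ± 0.36 (SE; adjusted p = 0.0625, limma). Zfp202, whose human counterpart represses genes of lipid metabolism, gave -1.80, -0.77 and -0.92, then 0.80, 2.78, 2.21 and 2.78, from 7 arrays. Its turning part was 1.65 ± 0.37 (SE; adjusted p = 0.0713, limma). In both, the orientations were on opposite sides of 0.

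Of the 12 Zfp probes with the smallest p in the turning part, 9 were positive and 10 had orientations that did not overlap. They were chosen by the difference between the orientations, so this separation follows largely from the choice. Among all tested probes, the orientations were apart in 5.68% with Cy5 above and in 5.21% with Cy5 below. Zfp335, needed for neural progenitor division and linked to microcephaly in humans, had a turning part of 2.31 ± 0.78 (SE), with 1.47 to 2.60 in Cy5 and -6.59 to 0.68 in Cy3. Zfp292 had 1.80 ± 0.51, with overlap in 1 array of each orientation. Zfp263 had 1.10 ± 0.30, Zfp235 through AK002713 1.46 ± 0.41, Zfp9 through AB010325 1.23 ± 0.41, Zfp563 1.01 ± 0.34 and Zfp467, a regulator of adipocyte and osteoblast commitment in mice, 0.82 ± 0.28 (SEs).

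Zfp946 and Zfp455 were negative besides Zfp958. Zfp946 gave -0.58, 1.89, -0.40 and -1.54 in Cy3 and -5.10, -1.67, -3.40 and -4.19 in Cy5, with a turning part of -1.72 ± 0.47 (SE), and is the 1 probe named for both parts. Zfp455 gave 3.06, 2.22, 6.52 and 9.34 in Cy3 and -3.61, 0.55, 2.54 and -7.36 in Cy5. These were the widest ratios among the named probes, and the turning part of -3.63 ± 1.09 (SE) had an adjusted p of 0.157 in limma. Replicates 2 and 7 overlapped.

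**Figure D5:**
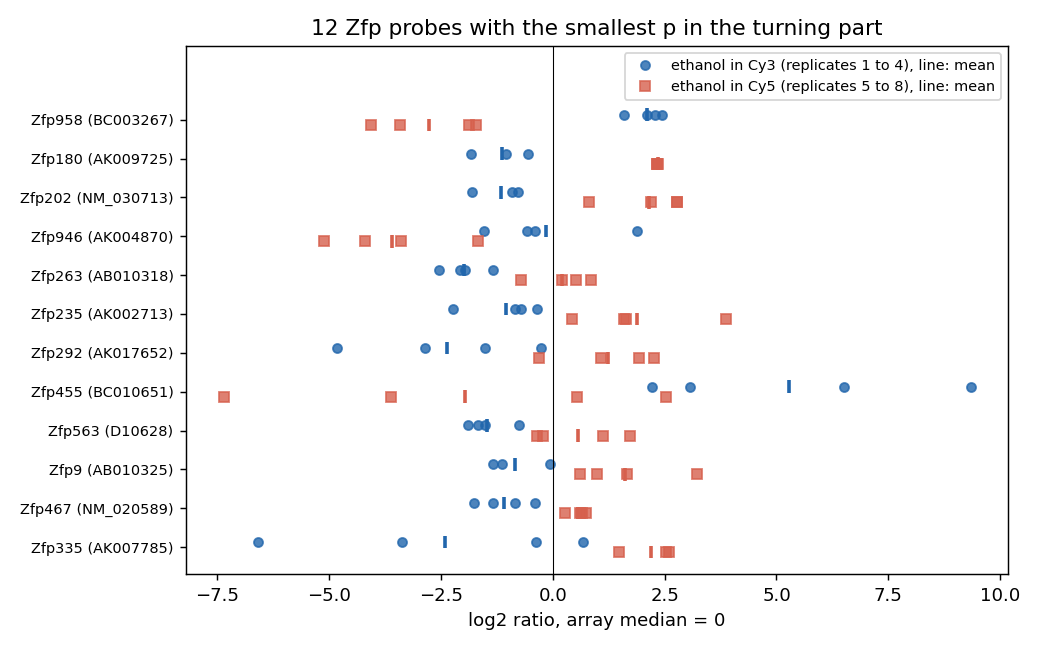
Log2 ratio (x axis, array median at 0) on each array for the 12 Zfp probes with the smallest p in the turning part, with the mean of each dye orientation as a short line. The 2 colours separate in 10 of the 12 probes, which were chosen by the difference between the colours. Zfp958 has its Cy3 arrays between 1.59 and 2.44 and its Cy5 arrays between -4.07 and -1.72.

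Neighbouring genes were also set side by side in the turning part. In the block from Zfp180 to Zfp428 the median turning part was 0.83, with Zfp180 at 1.74, Zfp61 at 1.58 and Zfp93 at 1.00, whereas in the block from Zfp84 to Zfp146 it was 0.20. The probes of a gene agreed in sign of the turning part in 12 of the 21 genes with several probes, with a median distance of 0.97. Of all tested Zfp probes, 56.6% were positive, and agreement between probes of different genes was not measured.

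Between arrays, the Zfp ratios correlated weakly. Over Zfp probes, mean Pearson's r was 0.306 for the 6 pairs of Cy3 arrays, 0.196 for the 6 pairs of Cy5 arrays and 0.029 for the 16 pairs between orientations. Over the other tested probes these were 0.292, 0.211 and -0.086. These correlations run across probes, which are not independent replicates, and probes on an array share its hybridisation.

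The number of computable ratios moved with the level of the Zfp ratios. The 128 Zfp probes with values on all 8 arrays had a median mean ratio of -0.41. The 61 tested probes with 3 values in the poorer orientation had -0.11, and the 29 untested probes with 2 had 0.00. Per array, 79.6% to 94.2% of the Zfp probes had a computable ratio, against 75.4% to 87.1% of the other probes.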

How the data were processed

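Control and ethanol-exposed RNA shared each of 8 two-colour arrays. Per the labels' protocols, RNA was labelled with a 3DNA dendrimer kit; the sources used here name no scanner, background correction or normalization. The authors deposited log2 ratios, 1 per probe and array, without intensities, so the number of arrays limits the precision. Values of exactly 0 and each array's highest value were taken as not computable, and arrays were centred on their medians. No Zfp value lay at the lowest ratio the rounding can hold.

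Probes were named from the platform's old annotation (16635 with 1 symbol, 113 with several and left unnamed, 4834 with none); 223 of the 225 Zfp probes matched the GRCm38.p6 table by Entrez number, with unchanged symbols. Probes with at least 3 values per orientation were fitted with limma 3.58.1 in R 4.3.3 (lmFit, eBayes). The same fit was run afterwards on simulated data with the missing values and spread of these arrays, and its outcome is not given here. P-values were Benjamini-Hochberg adjusted over 15345 probes, threshold 0.05; SEs are those of the moderated fit.

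Members and gene lists were chosen with earlier results of these data known, so list medians and counts carry no test. Named were probes past the threshold, the 12 with the smallest p per part, role-list members and genes with several probes. Per partner list, those with the smallest p in the shared part were named, and those with an unadjusted p under 0.05 in the turning part. Setdb1, the second Dnmt1 probe, the third Tbl1xr1 probe and the positive and all-array probes were added after their values were seen. So were the other AB0103 genes and block examples. A rule on finger number was not applied, as protein sequences were not used here. Alternatives changed centring, scaling, missing values, filters, moderation, weights, arrays, membership and the probe per gene. Array code numbers shared across orientations were not used to pair arrays in the main fit.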

Additional observations from a re-analysis of the deposited data

Results flagged for a closer look

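Among 43 sets of 4 arrays, taken from the named probes and the Zfp array medians, 1 had an array far from the rest. Probe AB010321 of Zfp27 gave -4.294 on replicate 3, while the other arrays with exposed RNA in Cy3 lay between -2.592 and -2.406. The gap to the nearest array took 0.9015 of the range, above Dixon's critical value for 4. Chance gives such an array in about 1 of 20 sets, and without replicate 3 the shared part of the probe stayed negative.

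Zfp958 differed between the dye orientations by the test of the difference itself, with a turning part of -2.441 and an adjusted p of 0.0051 in limma. All 4 ratios with exposed RNA in Cy3 were positive and all 4 with it in Cy5 were negative.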

How the results depend on the processing

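No Zfp probe passed the adjusted threshold in the shared part under any of 22 alternatives, and the median shared part stayed negative, between -0.51 and -0.20. The count of negative Zfp probes with an unadjusted p under 0.05 was 41 of 189 (21.7%), beside 8.85% of the other tested probes. Without the 3 arrays whose codes end in r, where fewer arrays and probes enter, it was 27 of 135 (20%), beside 8.11%. Outside the AB0103 series it was 26 of 160 (16.3%). With the code number as a replicate block, over the 6 arrays that share one, it was 38 of 141 (26.95%), beside 10.002%. The median shared part in that setting was -0.36, beside -0.097 for the other probes. In the turning part, the 1 probe called became 4 with the values as deposited (Zfp263, Zfp180 and Zfp202, all positive, and Zfp958), 0 without those 3 arrays and 0 with the code number as a replicate block. The median turning part of 0.12 became 0.43 with the values as deposited, while that of the other probes went from 0.11 to 0.42. In the same settings the calls over all probes were 417, 79 and 85, against 239. Leaving out 1 array at a time gave 29 to 45 negative Zfp probes with an unadjusted p under 0.05. That was 14.5% to 22.8% of the Zfp probes, beside 6.55% to 9.24% of the other probes. Median shared parts were -0.35 to -0.26 and median turning parts 0.03 to 0.28, with Zfp958 past the threshold each time. For Zfp958, the adjusted p ran from 0.0026 to 0.159 in limma. The median of the unnamed AB0103 probes lay between -1.61 and -1.10. The 3 pairs of arrays with the same code number had correlations of their deviations of 0.044, 0.014 and -0.016, and the main fit did not pair them. The labels do not say whether such arrays share RNA, and these values do not settle it. No value reversed. The AB0103 series, the block in the shared part and the count at an unadjusted p were added after seeing the data.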
